A study of Mus musculus with 4 samples.

Results

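The open chromatin around 9 regulators of the intermediate mesoderm and body wall was examined in early mouse limb buds. The genes were Wt1, Osr1, Osr2, Tcf21, Pax2, Pax8, Lhx1, Nr2f1 and Nr2f2. Every accessible region whose centre lay nearer to an annotated start of one of these genes than to that of any other protein-coding gene, or within 2.5 kb of such a start, was taken. This gave 100 of the 42613 E9.5 regions and 77 of the 46765 E10.5 regions, nearest to 9 of 22380 protein-coding genes. No region entered through the 2.5 kb distance alone. The nearest start is a position and not an assigned target, so a region described as belonging to a gene may act on another gene.

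ATAC-seq, in which a transposase cuts accessible DNA and inserts sequencing adapters, was performed on wild-type NMRI embryos, a mouse strain. Each stage had 2 biological replicates, each a pair of forelimb buds from 1 embryo, combined by the authors into 1 list of regions per stage. Samples labelled E9.5 were given as E9.75 in the protocol and kept a piece of the adjoining trunk, whereas E10.5 samples are described as forelimb pairs without trunk, although their tissue label also names hindlimb buds. Stage and trunk tissue therefore cannot be told apart in any comparison below. Neither a replicate error nor a read depth was available, so differences between the stages were not tested over embryos. Nor can a smaller number of cells with an open site be told apart from lower accessibility per cell.

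The intermediate mesoderm lies between the somites and the lateral plate and forms the kidneys and gonads, while the lateral plate gives rise to the limb bud mesenchyme and the body wall. Pax2, Pax8 and Lhx1 encode transcription factors that set up the nephric duct and the early kidney. Osr1 and Wt1 act in the kidney and gonad primordia, and Wt1 also marks the lining of the body cavity. Tcf21, a basic helix-loop-helix factor, is active in the mesenchyme of internal organs, and Nr2f1 and Nr2f2 are orphan nuclear receptors of embryonic mesenchyme and other tissues. These genes are used in the trunk next to the early limb bud, although several are also active in the limb bud itself. The lists hold accessibility and not expression, so they do not show whether a gene was transcribed.

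Here, shared regions are those with 1 bp or more in common with the list of the other stage, and stage-specific regions are the rest. The score of a region is the authors' measure, 10 times the negative log10 of its best peak-calling p-value, and it grows with sequencing depth. A region listed at a single stage fell below the calling threshold at the other stage, which does not make it closed there. Because the score scale depends on depth, the stages are compared below by the percentile of a score within its own list, from 0 to 100. The interval given with a share is the 95% Wilson interval. It describes the counting error alone, as if regions were independent.

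Sequences at the centres of high-scoring stage-specific regions are shown to display single loci. Each gene was used once, at the strongest region specific to a stage, and the stages took turns in order of score, so a gene may hold a stronger region specific to the other stage, as Nr2f2 and Wt1 do. Each is 201 bases of the forward strand of NCBIM37 (mm9) around the region centre, since the lists give no summits. Capitals mark matches on either strand to 8 short motifs: GTGGGNG (read by WT1 and EGR zinc fingers), AGGTCA (the core read by nuclear receptors), CAGCTG (an E-box), TAATTA (a homeodomain core), TGACAG (TALE factors), GGCGCC (read by BMP-activated SMADs), CAGACA (the SMAD box) and AGATAA (read by factors of the GATA family). Windows at the strongest specific regions of Pax2 and Tcf21 lie over exons and are replaced by promoters. For Osr2, none is shown.
Nr2f1, E9.5-specific, chr13:79075586-79075786: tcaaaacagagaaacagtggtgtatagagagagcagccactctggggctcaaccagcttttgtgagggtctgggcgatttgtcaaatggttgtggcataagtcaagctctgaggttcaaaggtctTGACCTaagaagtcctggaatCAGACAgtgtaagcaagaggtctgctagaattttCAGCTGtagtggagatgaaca
Pax8, E9.5-specific, chr2:24358707-24358907: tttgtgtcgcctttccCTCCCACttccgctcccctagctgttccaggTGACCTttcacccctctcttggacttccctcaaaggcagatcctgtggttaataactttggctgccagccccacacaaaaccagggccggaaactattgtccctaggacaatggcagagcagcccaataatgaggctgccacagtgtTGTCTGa
Lhx1, E9.5-specific, chr11:84382060-84382260: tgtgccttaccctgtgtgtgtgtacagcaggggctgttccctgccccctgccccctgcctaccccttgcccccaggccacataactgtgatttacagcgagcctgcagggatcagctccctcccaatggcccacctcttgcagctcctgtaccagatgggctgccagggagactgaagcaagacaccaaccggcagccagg
Osr1, E10.5-specific, chr12:9344782-9344982: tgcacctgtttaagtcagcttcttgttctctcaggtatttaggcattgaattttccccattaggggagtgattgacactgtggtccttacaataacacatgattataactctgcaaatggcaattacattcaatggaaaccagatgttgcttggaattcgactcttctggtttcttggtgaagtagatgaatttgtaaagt
Nr2f2, E10.5-specific, chr7:77345218-77345418: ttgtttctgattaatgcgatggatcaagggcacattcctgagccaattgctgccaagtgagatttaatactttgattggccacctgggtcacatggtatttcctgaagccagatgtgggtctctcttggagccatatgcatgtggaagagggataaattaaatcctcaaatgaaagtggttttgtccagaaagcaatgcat
Wt1, E10.5-specific, chr2:104981819-104982019: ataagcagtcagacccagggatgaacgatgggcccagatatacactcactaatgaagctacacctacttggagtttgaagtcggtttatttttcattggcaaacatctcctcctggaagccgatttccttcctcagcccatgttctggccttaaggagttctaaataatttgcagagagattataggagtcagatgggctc

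The 3 E9.5-specific windows had GC contents of 46.3% (Nr2f1), 53.7% (Pax8) and 62.2% (Lhx1), and the 3 E10.5-specific windows 38.3% (Osr1), 42.8% (Nr2f2) and 44.8% (Wt1). This order does not hold at every gene. At Nr2f2 the strongest E9.5-specific region, which scored 432.43 and is not printed, had 41.5% GC over the 301 bp at its centre, and the E10.5-specific region printed here had 44.2% over the same length. The Nr2f1 window held a nuclear receptor core, a SMAD box and an E-box. A nuclear receptor core and a SMAD box were also present in the Pax8 window, beside a WT1-type core, whereas no match to any of the 8 motifs fell in the other windows printed.

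Pax2 and Tcf21 were the members whose promoter-proximal regions were listed at E9.5 alone, so their promoters are shown as well. They are the 250 bases before the RefSeq start, from a GRCm38.p6 table, placed in NCBIM37 by exact match and written in the direction of transcription. Tcf21 is on the minus strand and Pax2 on the plus strand.
Tcf21, chr10:22539950-22540199: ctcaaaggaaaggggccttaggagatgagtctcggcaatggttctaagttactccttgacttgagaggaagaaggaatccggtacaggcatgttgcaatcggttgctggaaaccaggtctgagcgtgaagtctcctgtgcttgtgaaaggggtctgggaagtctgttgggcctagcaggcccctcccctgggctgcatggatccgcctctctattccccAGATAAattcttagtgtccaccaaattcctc
Pax2, chr19:44829992-44830241: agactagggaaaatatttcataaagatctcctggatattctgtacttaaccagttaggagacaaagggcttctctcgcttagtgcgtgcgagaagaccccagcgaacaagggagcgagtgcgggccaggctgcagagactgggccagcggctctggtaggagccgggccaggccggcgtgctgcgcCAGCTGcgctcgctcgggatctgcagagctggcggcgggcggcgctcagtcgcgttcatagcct
Pax2, chr19:44820841-44821090: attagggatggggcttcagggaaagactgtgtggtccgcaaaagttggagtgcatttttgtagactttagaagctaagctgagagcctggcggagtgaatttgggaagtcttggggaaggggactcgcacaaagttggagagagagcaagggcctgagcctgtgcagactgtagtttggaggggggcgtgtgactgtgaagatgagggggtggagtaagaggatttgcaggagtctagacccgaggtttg
The Tcf21 promoter held a GATA-type core and the first Pax2 promoter an E-box. The second Pax2 promoter held no match, and the remaining one, which lies over an exon and is not printed, held 2.

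The number of regions per gene ranged from 3 (Pax8) to 38 (Nr2f1) at E9.5 and from 1 (Lhx1) to 39 (Nr2f1) at E10.5. Of the 100 E9.5 regions, 52 were stage-specific (52%, interval 42.3 to 61.5%), while 29.9% of the whole E9.5 list was. Of the 77 E10.5 regions, 29 were stage-specific (37.7%, interval 27.7 to 48.8%), against 35.0% of that list. Weak and distal regions are stage-specific more often throughout the lists. Applied to regions of the same score decile and promoter class, the list-wide shares gave 36.3 regions at E9.5 and 32.3 regions for E10.5. The 52 found at E9.5 thus exceeded that number and the 29 found at E10.5 did not reach it.

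**Figure D1:**
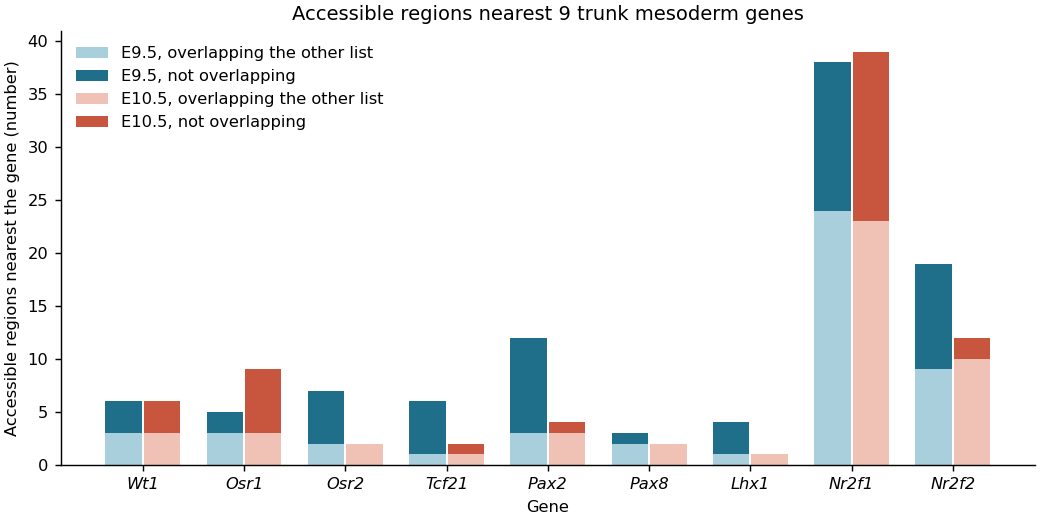
Bars give the number of accessible regions (y axis) nearest each of the 9 genes (x axis), at E9.5 in blue and E10.5 in red, with regions that overlap the other list in the pale part and those that do not in the dark part. Pax2 had 9 dark regions at E9.5 and 1 at E10.5, Tcf21 5 and 1, and Osr2 5 and 0, whereas Osr1 had 2 and 6.

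The genes were not alike. Stage-specific regions were more numerous at E9.5 than at E10.5 for 6 genes (Osr2, Tcf21, Pax2, Pax8, Lhx1 and Nr2f2), equal in number for Wt1 and fewer for Osr1 and Nr2f1. Among the 16495 genes with any region, the earlier stage had more stage-specific regions for 25.5% and fewer for 26.8%. The rest had equal numbers. Genes with few regions can tie more easily, and these shares were not matched for the number of regions. Even Pax8, with the fewest E9.5 regions of the 9, was exceeded by only 3380 of 22380 genes. Nr2f1 alone held 38 of the 100 E9.5 regions. For Nr2f1, 14 of 38 E9.5 regions were stage-specific, with 13.5 given by score and class, and 16 of 39 at E10.5, with 16.7 given. The remaining 8 genes had 38 of 62 stage-specific regions at E9.5 (61.3%, interval 48.8 to 72.4%), against 22.8 given by score and class, and 13 of 38 at E10.5 (34.2%, interval 21.2 to 50.1%), against 15.6.

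In terms of sequence covered, 38% of the bases in a region of the 9 genes at either stage were in a region at both, compared with 50.6% over the whole lists. Tcf21 (9.56%), Pax2 (13.8%) and Lhx1 (19.3%) had the smallest overlap in bases. The value was 24.0% for Osr1, 38.8% for Osr2, 40.1% for Nr2f2, 41.6% for Wt1, 46.5% for Nr2f1 and 63.5% for Pax8.

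Among the factors of the nephric lineage, Pax2 had 12 regions at E9.5 and 4 at E10.5. Its strongest E9.5 region scored 672.85, spanned 2419 bp and was centred 562 bp past a Pax2 start (chr19:44829892-44832310), and it had no E10.5 counterpart. A second promoter-proximal region scored 105.72, 156 bp before another annotated start of the gene. Of the 9 E9.5-specific regions, 7 were distal and lay between 5.35 and 76.2 kb from a start, with scores from 104.5 to 246.72. The highest of these lay 76.2 kb inside the gene over a coding exon, followed by a region 36 kb upstream that scored 244.51. Another of them, 9.31 kb upstream with a score of 112.25, covered the Pax2 RefSeq promoter that begins at chr19:44820841. It is therefore distal only with respect to the annotated starts used for the assignment. All 3 shared Pax2 regions were upstream and held a higher score percentile at E9.5. Farthest out, 85.7 kb upstream, the scores were 241.34 at E9.5 (percentile 47.5) and 88.71 at E10.5 (percentile 4.6). At 83.8 kb they were 123.98 and 75.31, and at 29.6 kb 170.83 and 147.57, the last being the strongest E10.5 region of the gene. The single E10.5-specific region was intronic, 57.6 kb past a start, with a score of 136.61.

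Pax8, the paralog that shares early kidney functions with Pax2, had only 3 regions at E9.5 and 2 at E10.5. Its promoter-proximal region scored 468.76 at E9.5 (percentile 64.9) and 298.53 at E10.5 (57.3). A region 46.1 kb upstream was its strongest at both stages, with scores of 906.11 and 636.54 and nearly equal percentiles of 78.0 and 77.0. Between them, 27.7 kb upstream, lay the E9.5-specific region whose centre is printed above, with a score of 597.61 (percentile 69.8). It was the single region of the gene without a counterpart at the other stage, and the promoter-proximal region was narrower at E10.5, with 1658 bp compared with 2184 bp.

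Lhx1, a LIM homeodomain factor needed for the nephric duct, had 4 regions at E9.5 and 1 at E10.5. That region covered the promoter at both stages, but its score was 682.09 at E9.5 (percentile 72.4) and 167.74 at E10.5 (percentile 35.1). It was also narrower at E10.5, with 930 bp compared with 1764 bp. The 3 E9.5-specific regions lay 1.18 kb from a start inside the gene (score 128.21), 43.2 kb upstream (181.98) and 117 kb upstream (178.78).

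Wt1, a zinc finger factor, had 6 regions at each stage. Its 3 shared regions were a promoter region with scores of 1024.24 at E9.5 and 533.74 at E10.5 (percentiles 80.3 and 73.0), one 3.58 kb upstream with scores of 821.68 and 701.88 (76.0 and 79.1), and a region near an internal start with 206.72 and 141.26 (42.3 and 26.7). The E9.5-specific regions scored 233.82, 202.97 and 106.31 and lay 1.48, 3.77 and 19.5 kb downstream of a start. Those specific to E10.5 scored 116.8, 85.25 and 75.12 at 10.9, 25.6 and 26.7 kb downstream. With regions under a score of 100 left out, the score of the stringent threshold, 3 E9.5-specific regions stood against 1 that was E10.5-specific.

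The paralogous zinc finger genes Osr1 and Osr2 differed in direction. Osr1, an early gene of the intermediate and lateral plate mesoderm, had 5 regions at E9.5 and 9 at E10.5. Its promoter region scored 222.23 at E9.5 and 230.2 at E10.5, with percentiles of 44.8 and 48.3, and a region 10.6 kb downstream scored 486.37 and 310.51, with percentiles of 65.6 and 58.5. The percentiles of these shared regions thus lay within 7.1 points of each other. By contrast, 4 E10.5 regions lay between 206 and 236 kb upstream with scores of 291.34, 684.25, 107.41 and 273.43. The strongest of them, 235 kb upstream (chr12:9345386-9346765), had a single weak counterpart at E9.5 with a score of 80.46. Its percentile was 78.5 at E10.5 and 2.2 at E9.5, the widest gap among the shared regions of the 9 genes. The other 3 were E10.5-specific, as were 3 weaker regions 187, 198 and 324 kb downstream, with scores of 158.86, 113.64 and 118.3. A pair of further sites was found at E9.5 alone, 6.54 kb downstream (116.91) and 155 kb upstream (137.03).

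Osr2, best known for its function in palate development, had 7 regions at E9.5 and 2 at E10.5. Its promoter region scored 1086.6 and 830.15, at percentiles 81.5 and 82.5. The 5 E9.5-specific regions were weak, with scores from 88.07 to 170.25, and all lay between 2.79 and 30.6 kb from the start. A shared region upstream straddled the limit used to define promoter-proximal regions, since its centre lay 2706 bp from the start in the E9.5 list and 2470 bp in the E10.5 list. It scored 396.0 and 236.05.

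At Tcf21, which lies 530 kb from its upstream coding neighbour, 6 regions were listed at E9.5 compared with 2 at E10.5. The strongest E9.5 region covered the start and scored 389.52 over 1586 bp (chr10:22538895-22540480), and a second region inside 2.5 kb scored 151.18. Neither overlapped an E10.5 region. The 3 distal E9.5-specific regions lay 3.74 kb downstream (189.21), 23.5 kb upstream (179.17) and 106 kb upstream (116.28). The shared region, 6.41 kb downstream of the start, scored 165.64 in the earlier list and 67.44 in the later one, the latter at percentile 0.4 of its list. An E10.5-specific region lay 261 kb upstream and scored 94.68. Both E10.5 values were below 100.

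**Figure D2:**
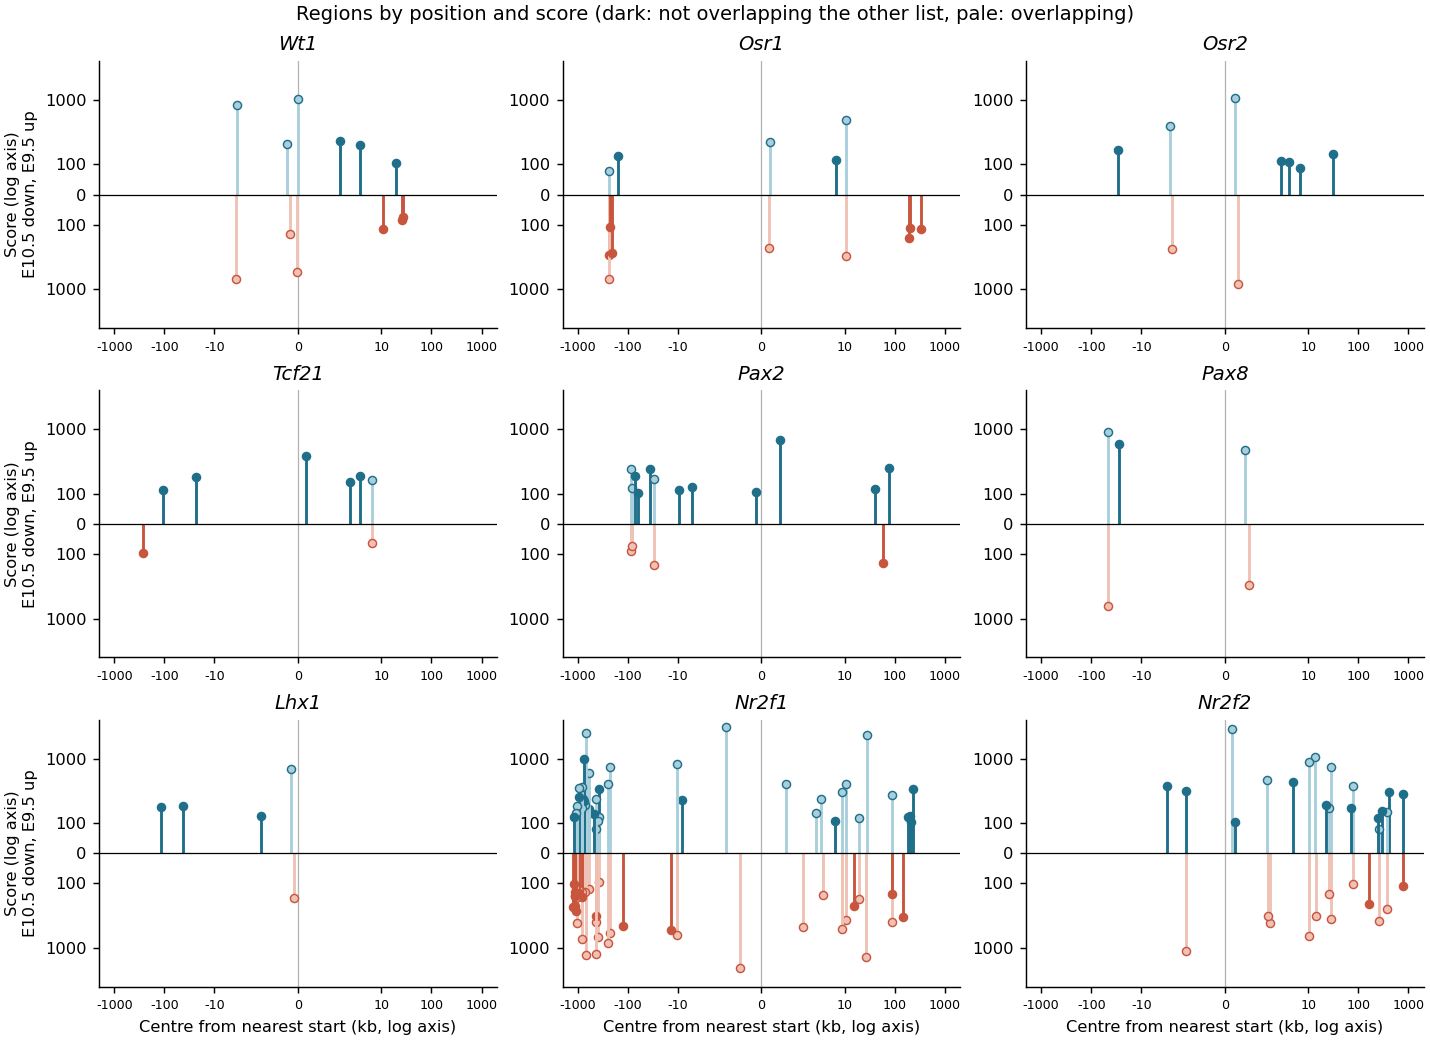
Each panel plots the regions of 1 gene by the distance of their centre from the nearest start of that gene (x axis, kb, log scale, negative upstream) and by score (y axis, log scale), with E9.5 upward in blue and E10.5 downward in red. Dark points do not overlap the other list and pale points do. Dark blue points stand on both sides of the Pax2 and Tcf21 starts, where no red point lies within 2.5 kb, while the dark red points of Osr1 lie 187 kb or more away.

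The nuclear receptor gene Nr2f1 was set apart by the number of its regions. With 38 at E9.5 it was exceeded by 2 of 22380 genes, and with 39 at E10.5 by 7. It is flanked upstream by 2684 kb without another protein-coding start, and the stretch nearest to it, 1592 kb, was at percentile 99.4 of all genes. A single broad region of 7518 bp covered its start at E9.5 with a score of 3100 (percentile 98.8), and a region of 8163 bp at E10.5 with 2073.67 (percentile 96.4). The E9.5 value is at the limit of the score and may understate the region. The widths of the 2 regions were at percentiles 99.9 and 100 of the lists. Further strong shared regions lay 27.3 kb downstream (2292.39 at E9.5, 1392.16 at E10.5) and 672 kb upstream (2460.44 and 1294.99). All of these ranked above percentile 90 at both stages.

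Other parts of the Nr2f1 locus differed between the lists in both directions. Between 402 and 430 kb upstream, 3 shared regions scored 107.02, 81.33 and 233.18 at E9.5 and 688.97, 401.8 and 1228.51 at E10.5, so that their percentiles were 10.4, 2.4 and 46.4 in the earlier list and 78.7, 65.8 and 89.7 in the later one. An E10.5-specific region with a score of 324.58 lay among them. Of the 8 shared regions farther upstream, 5 had the higher percentile at E9.5. The widest gap among them was at 596 kb, where a region scored 590.49 at E9.5 and 123.04 at E10.5, a percentile 50.4 points higher at E9.5. The strongest E9.5-specific region of all 9 genes, printed above, lay 737 kb upstream with a score of 994.36 and was followed within 2 kb by another with 217.42. A group of 5 E10.5-specific regions, scoring from 102.49 to 224.95, lay between 1140 and 1164 kb upstream. The other 3 of the 8, at 831, 1056 and 1086 kb, had E9.5 percentiles of 59.1, 38.2 and 25.8 and E10.5 percentiles of 79.7, 66.5 and 35.8. The highest E10.5-specific score at this gene was 531.18, 13.5 kb upstream.

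Nr2f2, the paralog of Nr2f1, had 19 regions at E9.5 and 12 at E10.5, of which 10 and 2 were stage-specific. Around its starts a single E9.5 region of 5635 bp with a score of 2917.37 (percentile 97.5) spanned 2 E10.5 regions, of 1707 bp (415.11, percentile 66.6) and 2230 bp (1100.59, percentile 87.8). Within 6 kb of a start, 4 more regions were listed at E9.5 alone, with scores of 432.43, 371.95, 318.39 and 104.92. Shared regions 10.3, 13.5 and 28.9 kb downstream scored 893.62, 1052.65 and 737.59 at E9.5 and 652.12, 318.81 and 351.42 at E10.5. By percentile, the first of these ranked alike (77.7 and 77.6), while the others were 21.6 and 11.8 points higher at E9.5. The widest gap toward E9.5 at this gene was 79.7 kb downstream, with scores of 369.09 and 102.49 (percentiles 59.5 and 9.1). Still farther downstream, in the opposite direction, a region at 256 kb scored 81.7 (percentile 2.4) at E9.5 and 389.65 (percentile 65.0) at E10.5. Another at 372 kb had percentiles of 28.6 and 50.6. The E10.5-specific regions lay 160 kb (207.64) and 777 kb (111.39) downstream.

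Promoter-proximal regions, those centred within 2.5 kb of a start, made up 18 of the 100 E9.5 regions (18%, interval 11.7 to 26.7%) and 12 of the 77 E10.5 regions (15.6%, interval 9.15 to 25.3%). In the whole lists the shares were 38.3% and 32.9%. Without Nr2f1 the shares were 25.8% and 26.3%. Promoter-proximal regions were listed for 9 genes at E9.5 but for 7 at E10.5, where Tcf21 and Pax2 had none, compared with 65.1% and 62.5% of all protein-coding genes. Of the genes with such a region at E9.5, 5.77% had none at E10.5.

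Within this class, 8 of 18 E9.5 regions were stage-specific, whereas 13.1% of promoter-proximal E9.5 regions in the whole list were. They belonged to Wt1, Tcf21, Pax2, Lhx1 and Nr2f2. None of the 12 promoter-proximal E10.5 regions was stage-specific, which allows a share of up to 25%, and the share in the list was 5.31%. Among distal regions, 44 of 82 were E9.5-specific and 29 of 65 were E10.5-specific, with 40.3% and 49.6% of all distal regions of the lists. The median distance of stage-specific distal regions was 67.6 kb at E9.5 and 236 kb at E10.5, compared with 31.0 and 63.4 kb in the lists. Shared distal regions of the 9 genes had medians of 84.7 and 87.4 kb, so at E9.5 the specific regions of all 9 genes together were not the more distant ones. Without Nr2f1 the medians of the specific regions were 30.2 and 198 kb, the first of which was close to the list. Those of the shared regions were then 29.2 and 29.7 kb, so the E9.5 medians of both classes were nearly equal.

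RefSeq promoters, from 250 bases before to 50 after a start, could be placed exactly for 6 of the 9 genes. Those of Lhx1 and both of Nr2f1 overlapped a region in each list. Those of Tcf21, Pax8, Nr2f2 and all 3 of Pax2 overlapped an E9.5 region and no E10.5 region. The same overlap was not counted over the RefSeq promoters of all genes, so how common it is was not determined. Pax8 and Nr2f2 had a promoter-proximal E10.5 region all the same, which ended short of this stretch. At Pax8 the E9.5 region reached position 24331105 on chromosome 2 and the E10.5 region position 24330729, and the RefSeq promoter spans 24331070 to 24331369.

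A score-matched view was taken because weak regions were more often stage-specific. In the lowest 3 of 5 score classes, the E9.5 regions of the 9 genes were stage-specific in 70.8%, 64.0% and 58.3%, and the whole list in 57.6%, 45.9% and 33.6%. In the next class the values were 25% and 11.6%, and in the highest 0 of 7 and 0.692%. At E10.5 the corresponding values were 62.5%, 44.4%, 56.2%, 10% and 0 of 7 for the 9 genes, with 60.2%, 49.8%, 37.9%, 22.7% and 4.57% in the list. The 9 genes thus stood above the list in 4 of 5 classes at E9.5 and in 2 of 5 at E10.5. Each class held at most 25 regions.

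**Figure D3:**
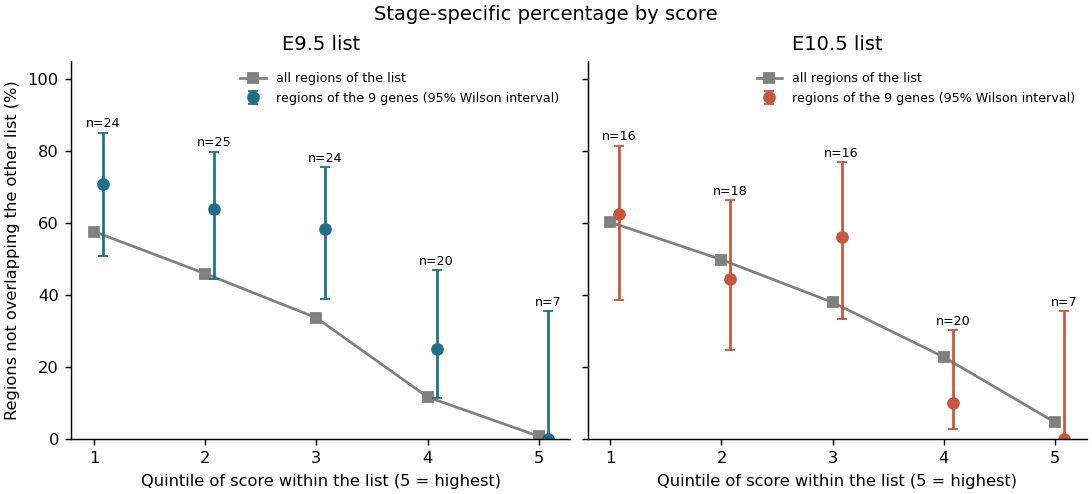
The percentage of regions that do not overlap the other list (y axis) is plotted by quintile of score (x axis, 5 the highest) for the 9 genes (coloured points, bars for the 95% Wilson interval, n above) and for the whole list (grey squares). At E9.5 the coloured points lie above the grey line in the lower 4 quintiles, by 58.3% against 33.6% in the third, and at E10.5 they lie on both sides of it.

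Shared regions were compared by rank. Of the 48 shared E9.5 regions, 27 had a higher score percentile at E9.5 than their best E10.5 partner (56.2%, interval 42.3 to 69.3%), and of all shared E9.5 regions 49.7% did. The median difference was 2.8 percentile points for the 9 genes and -0.1 for all. For Nr2f1, 9 of 24 ranked higher at E9.5, with a median difference of -6.3. For the other 8 genes it was 18 of 24 (75%, interval 55.1 to 88.0%), with a median difference of 7.2. All shared regions of Pax2, Pax8, Lhx1 and Tcf21 ranked higher at E9.5, 7 regions in total, and 7 of 9 at Nr2f2.

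**Figure D4:**
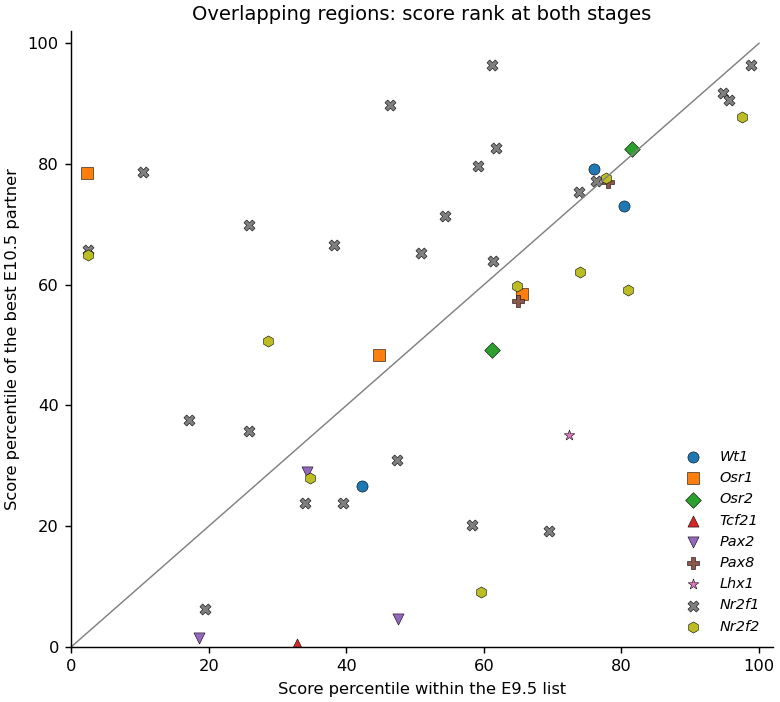
Each point is a shared E9.5 region, placed by its score percentile in the E9.5 list (x axis) and by that of its best E10.5 partner (y axis), with a symbol per gene and the line of equal percentile. Pax2, Lhx1 and Tcf21 lie below the line, that is with a higher rank at E9.5, while the Osr1 region 235 kb upstream stands at the upper left (2.2 and 78.5).

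Base composition differed with stage. The median GC content of 301 bp at the region centre was 53.3% for the 52 E9.5-specific regions of the 9 genes and 41.9% for the 29 E10.5-specific ones. The same medians in the whole lists were 51.8% and 44.2%, so the same order was seen across all regions. Shared regions of the 9 genes had medians of 51.5% and 53.3%. Score, promoter class and GC content together gave 37.2 stage-specific E9.5 regions, where 52 were found, and 35.0 E10.5 regions, where 29 were found. With GC content included, the E10.5 shortfall lay at Nr2f1, with 22.4 given and 16 found, whereas the other 8 genes had 12.6 given and 13 found. This depended on the matching. By score and class alone, 16.7 were given for Nr2f1 and 15.6 for the other 8, so most of the shortfall lay at the latter. At E9.5 the values with GC content were 12.8 given and 14 found for Nr2f1, and 24.4 given and 38 found for the other 8.

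**Figure D5:**
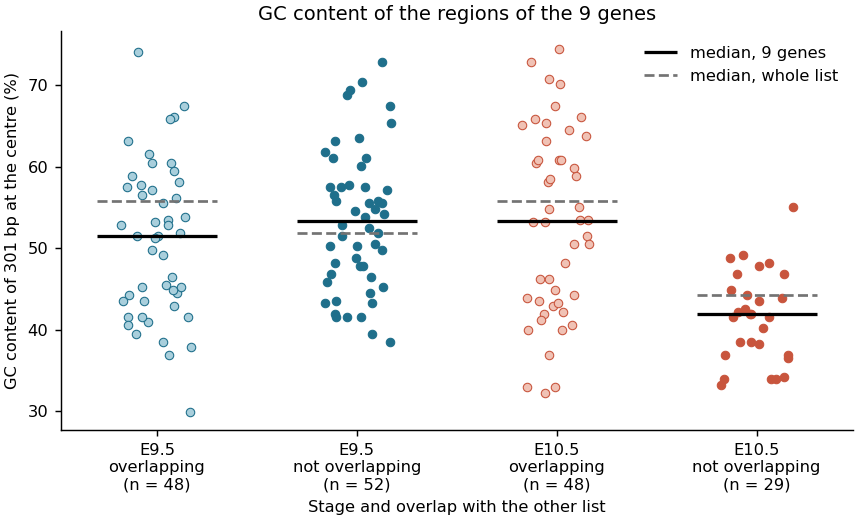
GC content of the central 301 bp (y axis, %) is shown for each region of the 9 genes, by stage and overlap with the other list (x axis), with black lines for the medians of these genes and grey dashed lines for those of the whole lists. The 29 E10.5-specific regions have a median of 41.9%, below the medians of the other classes.

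The motifs were looked for in the same 301 bp windows, as a description of letters and not of binding. At E9.5 the regions of the 9 genes held GTGGGNG in 33.0% of windows (list 30.1%), AGGTCA in 22% (20.4%), CAGCTG in 24.0% (23.5%), TGACAG in 19.0% (21.5%), CAGACA in 26.0% (23.9%), GGCGCC in 10% (13.0%), AGATAA in 15% (10.4%) and TAATTA in 10% (5.13%). At E10.5 the same shares were 20.8% (25.8%), 15.6% (17.3%), 20.8% (21.8%), 19.5% (20.8%), 16.9% (22.8%), 9.09% (11.2%), 14.3% (9.73%) and 14.3% (8.78%). Among E10.5-specific regions of the 9 genes, TAATTA was found in 7 of 29, and 15.8% of E10.5-specific regions in the list held it. GTGGGNG was found in 2 of those 29, where the list had 16.7%. No motif contains another, although neighbouring matches can share end letters, as TGACAG and CAGACA can. The shares over all regions were not matched for promoter class. Among distal E9.5 regions, TAATTA was found in 9.76% (list 7.18%), AGATAA in 17.1% (13.9%) and GTGGGNG in 35.4% (26.5%). AGGTCA (23.2%, list 25.3%), CAGCTG (25.6%, list 26.6%) and CAGACA (26.8%, list 28.6%) were below the list there. Among distal E10.5 regions, TAATTA and AGATAA stayed above the list, and GGCGCC was above it as well (6.15%, list 4.56%). The GC content of the windows is given above, and its part in the shares was not tested.

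Other genes of the same tissues were counted in the same way. For 30 further genes of the intermediate mesoderm and early kidney, 94 of 234 E9.5 regions (40.2%, interval 34.1 to 46.6%) and 115 of 260 E10.5 regions (44.2%, interval 38.3 to 50.3%) were stage-specific. A promoter-proximal region was listed for 30 of these genes at E9.5 and 29 at E10.5. Stage-specific regions were more numerous at the earlier stage for 14, fewer for 11 and equal in number for 5. For 30 genes of the lateral plate and body wall, the shares were 61 of 193 (31.6%, interval 25.5 to 38.5%) and 88 of 223 (39.5%, interval 33.3 to 46.0%). Promoter-proximal regions were listed for 29 and 27 of them, and 13 genes had more E9.5-specific regions, 12 fewer and 5 equal numbers. Set beside these, all regions gave 29.9% at E9.5 and 35.0% for E10.5. Of all genes with a region, 25.5% had more E9.5-specific regions, 26.8% fewer and the rest equal numbers. Those shares were not matched for the number of regions per gene. The E10.5 share was the higher one in both gene lists, as it was over all regions, whereas it was the lower one for the 9 genes. In the first list, however, Robo2 and Slit2 held 24 and 22 of the 115 E10.5-specific regions, and 8 and 7 of the 94 E9.5-specific ones. The order of its shares thus leans on these genes, and the shares without them were not computed. Per gene, the median difference in stage-specific regions between the stages was 0 in both gene lists. Whether the trunk tissue of the E9.5 samples takes part in any of these values was not tested.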

How the data were processed

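ATAC-seq regions of wild-type NMRI forelimb buds at E9.5 (with attached trunk) and E10.5 were used as 1 combined list per stage. The authors aligned reads to mm9 with Bowtie 1.1.0, keeping unique matches with at most 2 mismatches, called regions per replicate with MACS 1.4 and combined both replicates with MSPC (stringent p-value 1e-10, weak p-value 1e-06). The deposited score, −10 × log10 of the smallest p-value that MACS gave in either replicate, is not scaled to depth, and depth is unknown here.

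Regions were assigned by their centre to the nearest of 70064 protein-coding starts (GENCODE vM1, NCBIM37) with Python 3.11.15, numpy 2.4.6 and pandas 2.3.3. Coordinates are 1-based. A region within 2.5 kb of a start was promoter-proximal, and 1 bp of overlap made it shared. The members and the gene lists were chosen with earlier results of these data known, and no test was made, since each stage has 1 list. Expected counts used the list-wide stage-specific share of each of 10 score deciles in 2 promoter classes. The version that adds GC content, and leaving out each gene in turn, were chosen after seeing the data. The counting scripts were tested on simulated regions.

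The regions to be named were the highest-scoring, the highest-scoring distal and the highest-scoring stage-specific region of each gene and list. Others were named after their values were seen, among them the upstream groups at Osr1 and Nr2f1. Alternatives were other overlap criteria, score thresholds, promoter distances, gene types and distance limits.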

Additional observations from a re-analysis of the deposited data

How the results depend on the processing

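The E9.5 share of stage-specific regions near the 9 genes stayed above that of the whole list under the 5 overlap and score alternatives for which it was recomputed, but it was not recomputed for other gene types, distances or edges. It was 42.1% with the higher-scoring 50% of each list (whole list 25.9%) and 28.9% with those regions set against the entire other list (whole list 10.8%), where the E10.5 share was 18.9% (whole list 18.1%). The number of regions was 38 and 37 with the higher-scoring 50%, 54 and 32 with the starts of all gene types, and 64 and 38 within 100 kb, at E9.5 and E10.5 respectively. The promoter-proximal share was 27.0% at E9.5 with a limit of 5 kb (whole list 44.6%) and 9.09% at E10.5 with 1 kb (whole list 28.6%). At 1 kb, 6 genes had a promoter-proximal E10.5 region, Nr2f2 being without one besides Tcf21 and Pax2. Of 50 alternative values for the summary results, 39 moved by less than their interval or stayed within 1.5 times, and 11 did not. Leaving out 1 gene at a time gave E9.5 shares from 48.9% (without Pax2) to 61.3% (without Nr2f1) and E10.5 shares from 33.8% (without Osr1) to 41.5% (without Nr2f2). No paired analysis was possible because the replicates of a stage were merged into 1 list, and leaving out each replicate was not run for the same reason. The lists show which regions passed a threshold, and many stage-specific regions of Osr2, Wt1 and Pax2 lie close to it. With the higher-scoring 50% of each list, Osr2, Tcf21, Pax2, Pax8 and Lhx1 each had 1 E9.5-specific region and 0 E10.5-specific regions. Nr2f2 had 6 and 2, Wt1 had 0 and 0, Osr1 had 0 and 3, and Nr2f1 had 5 and 9. The part of sequencing depth in these differences was not tested.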
